A study of Rattus norvegicus with 90 samples.

Results

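Microglia from rat pups that received IL-1β and then intranasal stromal cells were compared with microglia from pups that received neither. The comparison takes the 9 libraries titled P7, intranasal (P5), IL1-beta, HuMSCs and the 3 libraries titled P7, intranasal (P5), PBS, which is 12 of the 90 libraries of the series. All animals were male Wistar Han rats, and all of these libraries came from 1 sequencing run. Controls received PBS in place of IL-1β by intraperitoneal injection and PBS in place of cells. Treated pups received recombinant mouse IL-1β at 20 µg/kg, 2 times daily from postnatal day (P) 1 to 4 and once on P5, and then HuMSCs in PBS into the nose on P5. HuMSCs are mesenchymal stromal cells from human umbilical cord. The doses were 20, 50 and 125 M cells per kg, with 3 libraries each (HuMSC20, HuMSC50 and HuMSC125 here). A further 3 libraries, from pups given IL-1β and then PBS without cells (injured), belong to the same run and are given beside the others. Brains were taken 48 h after the cells, at P7, and perfused. Olfactory bulbs and cerebellum were removed, and cells were isolated with beads against CD11b/c, which bind microglia and other myeloid cells. The model uses only males, and the cells were measured once after dosing. Whether the 3 libraries of a group come from different pups is not in the labels, and the p-values therefore measure only the spread between these samples, which may be technical.

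Microglia are the resident macrophages of the brain. In the first postnatal days they divide, clear debris and dying cells, and support the formation of myelin, and systemic IL-1β in this window serves as a model of the inflammation that accompanies preterm birth. The comparison asks which genes still stood apart from uninjured pups after cell treatment. Total counts in the 12 libraries ran from 15.1 to 26.2 M reads with a median of 19.8 M. The homeostatic microglia list (25 matched genes) was summed as CPM (counts scaled to a common library size). The sums ran from 43827 to 48078 CPM in the controls and from 39718 to 48283 CPM in the treated libraries. As a sum, the defining genes of the labelled cell type were thus present at high levels in every library. Single members could be low, and Siglech had no count in 10 of the 12 libraries. Csf1r, the receptor for the microglial survival signals CSF1 and IL-34, stood at 6669, 6537 and 6980 CPM in controls and at 5641 to 6896 CPM in treated libraries. In bulk RNA, fewer cells of a type and less RNA per cell cannot be told apart, and this holds for each gene below.

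Of 13872 genes tested, 416 differed between treated and control libraries (3.00% of those tested; edgeR's quasi-likelihood test, adjusted p under 0.05), 194 higher (1.40%) and 222 lower (1.60%). The median log2 fold change over all genes was 0.01. All 9 treated libraries lay above all 3 controls for 349 genes (2.52%) and below them for 483 (3.48%). The count of 416 moved with single controls: leaving out replicate 1, 2 or 3 of them gave 177, 59 or 239 genes. It was 201 without HuMSC20 replicate 2 and 243 without HuMSC125 replicate 3. In each of the 12 fits that left out 1 of these libraries, 38 of the 416 genes were called, 12 of them higher and 26 lower. These 38 include Ankrd55, Ccdc8, Gcnt2, Dhrs9, Enpp6, Pygm, S100a4, Sgk1, Msmo1, Ctsl, Ctsb and Fcgr2b among the lower genes and Sdc1 and Tnfaip8l3 among the higher. For the other genes below, the libraries that decide a call are given by gene or by list.

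**Figure D1:**
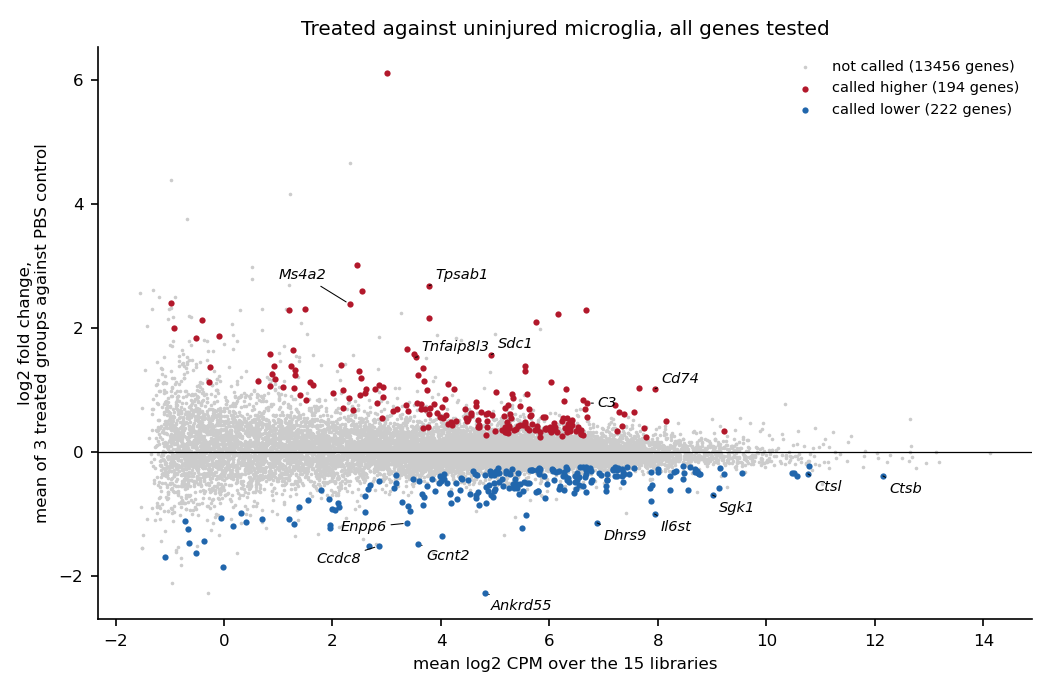
Each point is 1 of 13872 genes; the x axis is the mean log2 CPM over the 15 libraries of the run and the y axis the log2 fold change of the mean of the 3 treated groups against PBS control. Red points are the 194 genes called higher and blue points the 222 called lower. Ankrd55 is the lowest labelled gene at a log2 fold change of -2.27, and the mast cell genes Tpsab1 and Ms4a2 are the highest labelled at 2.69 and 2.39. The unlabelled point at 6.12 is AC120486.9.

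The largest fall among the named genes was in Ankrd55, which encodes an ankyrin repeat protein. It stood at 80.1, 79.1 and 80.2 CPM in the 3 controls. The treated libraries ran from 8.44 to 35.1 CPM with a median of 14.1, so the highest treated library was well below the lowest control. The log2 fold change was -2.27 (SE 0.23, adjusted p = 0.000195 by edgeR's quasi-likelihood test), a 4.81-fold lower level. HuMSC20 libraries had 35.1, 29.4 and 14.1 CPM, HuMSC50 libraries 9.68, 11.9 and 14.3, and HuMSC125 libraries 8.44, 23.1 and 12.0. The injured libraries, without cells, had 8.12, 7.12 and 7.10 CPM and lay below every treated library. Ankrd55 was not among the 18 genes called between treated and injured libraries.

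Il6st, which encodes gp130, the signalling chain shared by the receptors of the IL-6 family, is the next protein-coding gene after Ankrd55 on chromosome 2 of the GRCr8 assembly. Controls had 549, 446 and 334 CPM, and treated libraries ran from 155 to 315 CPM with a median of 223. The groups did not overlap. The log2 fold change was -0.99 (SE 0.19, adjusted p = 0.0138 by edgeR's test), and the adjusted p became 0.0596 and 0.0653 when control replicate 1 or 2 was left out. Map3k1, the neighbour on the other side of Ankrd55, had a log2 fold change of 0.03 (SE 0.13, adjusted p = 0.918 by edgeR's test). The injured libraries had 91.3 to 130 CPM of Il6st, below all treated libraries, but Il6st was not called between treated and injured libraries.

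Ccdc8, Gcnt2 and Dhrs9 fell by more than 2-fold at all doses together, and the calls of all of them held without any 1 library. Ccdc8, a partner of the cullin protein CUL7 in the 3M complex, had 18.2, 11.8 and 15.2 CPM in controls and 3.45 to 9.11 CPM (median 5.17) in treated libraries. All treated libraries were below all controls, with a log2 fold change of -1.51 (SE 0.17, adjusted p = 0.000361 by edgeR's test). Gcnt2, the glycosyltransferase that makes branched I-antigen chains, had 23.0, 32.0 and 19.5 CPM in controls. Its treated libraries ran from 5.98 to 12.2 CPM (median 8.68), again without overlap (log2 fold change -1.47, SE 0.14, adjusted p = 0.000157 by edgeR's test). Dhrs9, a dehydrogenase of retinoids and steroids, had the smallest p of all named genes. It stood at 243, 202 and 169 CPM in controls and at 78.8 to 116 CPM (median 89.9) in treated libraries, a log2 fold change of -1.14 (SE 0.09, adjusted p = 5.21e-05 by edgeR's test). Its injured libraries, at 93.7, 109 and 103 CPM, lay within the treated range.

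Enpp6, a choline phosphodiesterase best known from newly forming oligodendrocytes, stood at 23.9, 19.0 and 16.3 CPM in controls. Its values were 12.7, 12.8 and 14.7 CPM in HuMSC20 libraries, 11.4, 7.52 and 12.0 in HuMSC50 libraries and 5.61, 7.21 and 3.00 in HuMSC125 libraries. All 9 were below the controls (log2 fold change -1.14, SE 0.19, adjusted p = 0.011 by edgeR's test). The call was lost when the 9 treated libraries formed 1 group (adjusted p = 0.0689). Injured libraries had 2.31, 3.09 and 3.12 CPM, and HuMSC125 replicate 3 was the only treated library within that range. Enpp6 was called higher in treated than in injured libraries (log2 fold change 1.66, SE 0.25, adjusted p = 0.0211 by edgeR's test). No gene was called in that comparison without injured replicate 3. The summed level of the 19 matched oligodendrocyte markers, Enpp6 included, was 522 to 621 CPM in controls and 481 to 655 CPM in treated libraries. The markers Mog, Mobp, Opalin, Ermn and Nkx6-2 had no count in at least 1 of the 12 libraries. The part of these cells in the fall of Enpp6 was not tested.

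**Figure D2:**
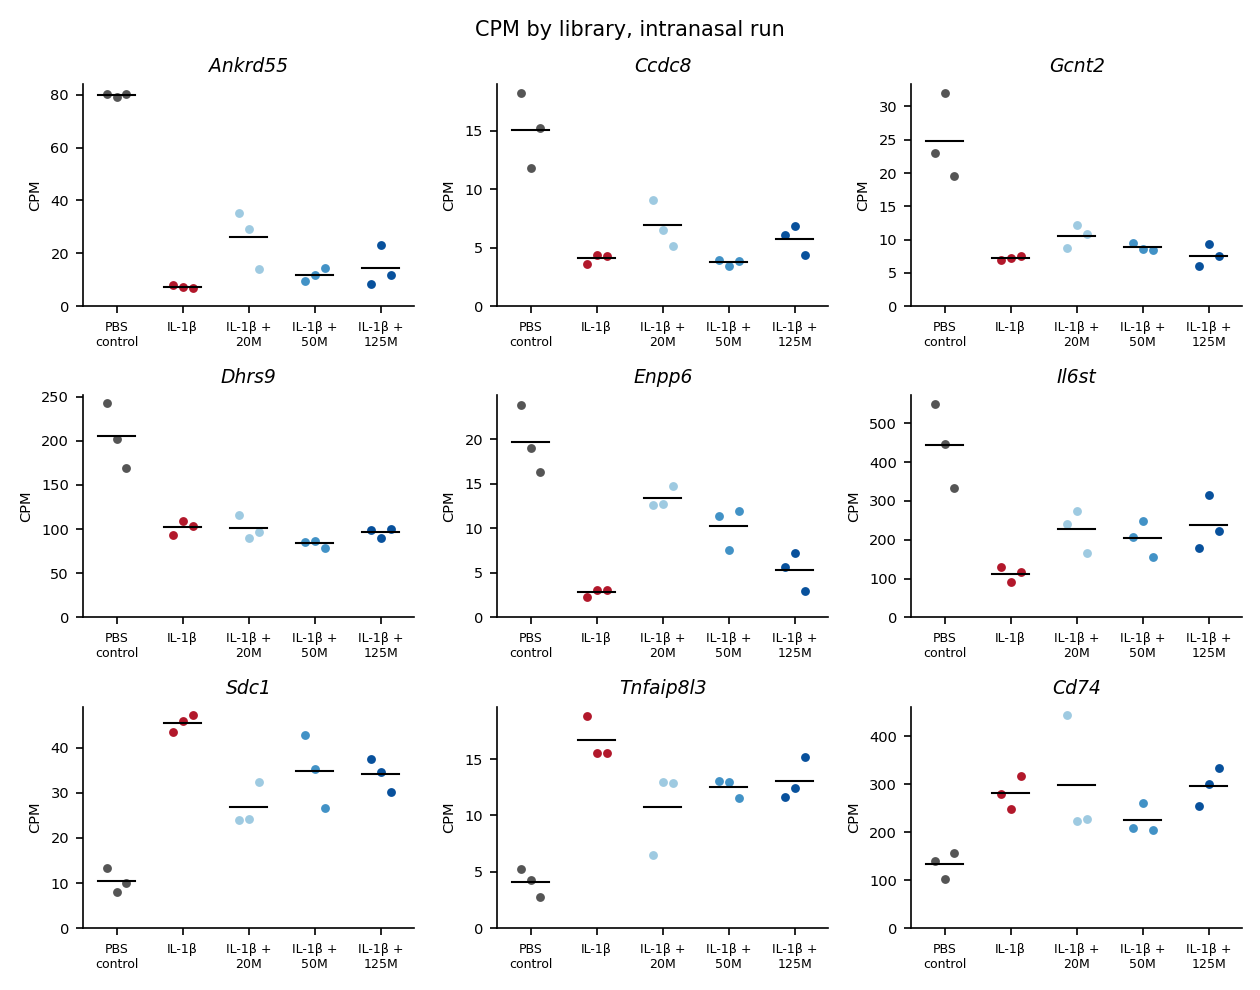
CPM on a linear axis that starts at 0, by group of the intranasal run; each point is 1 library and each line the mean of 3 libraries. All 9 treated libraries lie below the 3 controls for Ankrd55, Ccdc8, Gcnt2, Dhrs9, Enpp6 and Il6st and above them for Sdc1, Tnfaip8l3 and Cd74.

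Pygm, a glycogen phosphorylase, had 17.3, 14.2 and 18.7 CPM in controls and 7.28 to 11.9 CPM (median 8.86) in treated libraries. S100a4, a calcium-binding protein listed as a monocyte marker, had 33.0, 45.0 and 48.1 CPM in controls and 17.7 to 30.2 CPM (median 21.4) in treated libraries. Neither gene's groups overlapped. The log2 fold changes were -0.86 (SE 0.13, adjusted p = 0.00407) for Pygm and -0.84 (SE 0.11, adjusted p = 0.00133) for S100a4 by edgeR's test. The monocyte list as a whole went the other way, with a median log2 fold change of 0.21 over 12 genes tested and summed levels of 1851 to 2136 CPM in controls and 2229 to 2641 CPM in treated libraries. The remaining genes of the 15 largest falls were Mrpl50, Astn1, Tnni1, Crtac1, Cox6b2, Gabbr2 and Resp18, with log2 fold changes from -1.35 to -0.88. Mrpl50, a mitochondrial ribosomal protein, lost its call without control replicate 1 (adjusted p = 0.0627), and Resp18 lost it without control replicate 2 (0.103). Tnni1 and Cox6b2 lost theirs without control replicate 2 (0.0585 and 0.0567) and without control replicate 3 (0.113 and 0.0669). Astn1 and Gabbr2 lost theirs without control replicate 1 (0.0596 and 0.0997) and without control replicate 2 (0.0707 and 0.104), and Crtac1 lost its call without any 1 of the 3 controls (0.0574 to 0.0793).

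Among the rises, Sdc1 and Tnfaip8l3 held without any 1 library. Sdc1 encodes syndecan-1, a cell-surface heparan sulphate proteoglycan. It stood at 13.4, 8.11 and 10.0 CPM in controls and at 24.1 to 42.7 CPM (median 32.4) in treated libraries. The groups were far apart, with a log2 fold change of 1.58 (SE 0.17, adjusted p = 0.000333 by edgeR's test) or 2.99-fold. Injured libraries, at 43.4, 45.8 and 47.1 CPM, were above every treated library, but Sdc1 was not called between treated and injured libraries. Tnfaip8l3, which carries phosphoinositide lipids between membranes, had 5.26, 4.29 and 2.75 CPM in controls and 6.46 to 15.2 CPM (median 12.9) in treated libraries (log2 fold change 1.53, SE 0.22, adjusted p = 0.00297 by edgeR's test). Its lowest treated library, HuMSC20 replicate 1, was close to the highest control.

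Runx3, a transcription factor of lymphoid and some myeloid cells, had 1.88, 3.53 and 5.77 CPM in controls and 7.41 to 19.1 CPM (median 9.63) in treated libraries, without overlap. Its log2 fold change was 1.59 (SE 0.31, adjusted p = 0.0167 by edgeR's test), and the adjusted p was 0.064 without control replicate 1 and 0.083 without control replicate 2. Acap1, Ccn3 and Tmem151b rose by 1.32 to 1.42 on the log2 scale. Acap1 lost its call without control replicate 1 (adjusted p = 0.0688) and replicate 2 (0.0874), Ccn3 without control replicate 1 (0.0808) and replicate 3 (0.0697), and Tmem151b without any 1 of the 3 (0.0604 to 0.0811). Tnfrsf14, the receptor HVEM, ran from 0.827 to 1.65 CPM in controls and from 2.26 to 16.5 CPM in treated libraries. Its adjusted p of 0.0467 was above 0.05 in 9 of the 12 fits without 1 library, up to 0.147 without control replicate 2. The called genes with the largest fold changes of all, AC120486.9 (log2 fold change 6.12, SE 1.39, adjusted p = 0.0318 by edgeR's test) and the class I gene RT1-T24-1 (3.02, SE 0.78, adjusted p = 0.0496), fall outside the naming rule because their groups overlapped, and they are named here after their values were seen. AC120486.9, a gene without a settled symbol, had 0 to 0.294 CPM in controls and 0.185 to 20.7 CPM (median 14.7) in treated libraries, with -0.70 on the log2 scale in the intravenous run.

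Genes of cell division were lower after treatment than in uninjured pups. Dividing cells switch on a shared programme before mitosis, in which Pttg1 (securin) and Cdc20 time the separation of chromosomes, Tpx2, Kif20a and Prc1 organise the spindle, and Mki67 coats the chromosomes. All 49 tested members of the mitosis and G2/M list had a negative log2 fold change, 19 of them called lower, against 1.60% of all genes. The median was -0.48, against 0.01 over all genes, and 28 members had all 9 treated libraries below all controls, against 3.48% of all genes. The summed level of the list was 3910.5 to 4218 CPM in controls and 2265 to 3354 CPM in treated libraries, so the groups did not overlap. Injured libraries summed to 2111 to 2763 CPM.

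Pttg1 had 39.7, 50.8 and 45.9 CPM in controls and 16.8 to 31.8 CPM (median 27.0) in treated libraries. All treated libraries were lower, with a log2 fold change of -0.82 (SE 0.14, adjusted p = 0.0115 by edgeR's test). Cdc20 had 73.5, 77.8 and 90.7 CPM in controls and 39.1 to 61.8 CPM (median 53.8) in treated libraries (log2 fold change -0.62, SE 0.11, adjusted p = 0.0134 by edgeR's test). Tpx2 had 148, 146 and 155 CPM in controls and 66.1 to 111 CPM (median 95.7) in treated libraries (log2 fold change -0.65, SE 0.12, adjusted p = 0.0152 by edgeR's test). None of these groups overlapped, and HuMSC125 replicate 3 was the lowest library for all of them. Mki67, the marker of cycling cells, had 363, 341 and 280 CPM in controls and 163 to 260 CPM (median 242) in treated libraries (log2 fold change -0.53, SE 0.13, adjusted p = 0.0386 by edgeR's test).

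The number of called members was 6 without control replicate 1, 0 without control replicate 2 (adjusted p 0.0574 to 0.218 for the 19 genes by edgeR's test) and 8 without control replicate 3. It was 10, 5 and 9 without HuMSC20 replicate 1, 2 and 3, and 12 without HuMSC125 replicate 1. DESeq2 called 36 members, and over all genes it called 543 of 13870 lower. The DNA replication and G1/S list had a smaller shift, with 3 of 36 members called lower, Rrm1 and Tk1 among them, against 1.60% of all genes, 32 negative and a median of -0.16. None of these 3 was called without any 1 control (adjusted p 0.055 to 0.158 by edgeR's test), and none was called without HuMSC20 replicate 1 (0.0517 to 0.0536) or replicate 2 (0.0635 to 0.0774). A single call was left without HuMSC20 replicate 3, HuMSC125 replicate 1 or HuMSC125 replicate 3.

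**Figure D3:**
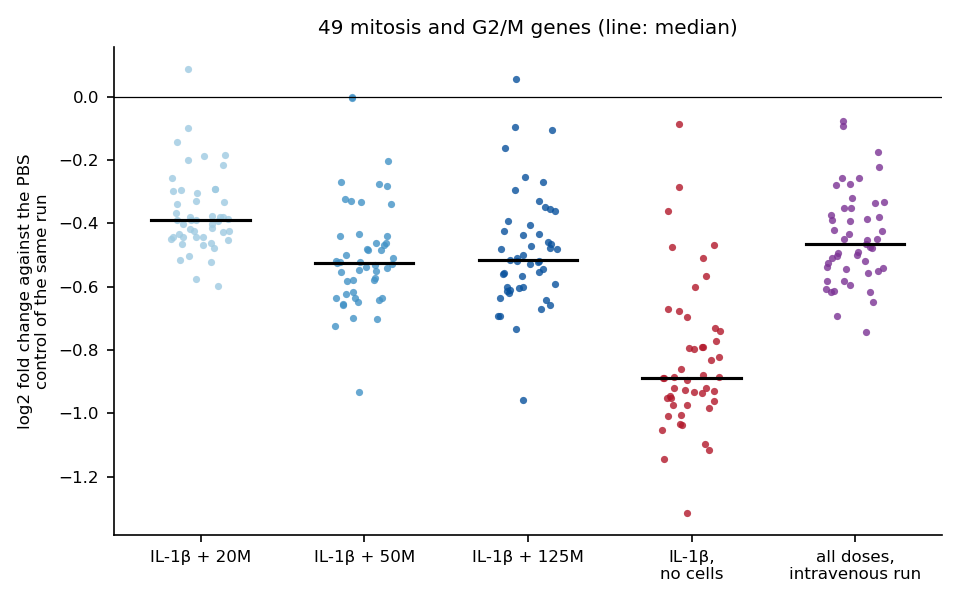
Each point is 1 of 49 mitosis and G2/M genes; the y axis is the log2 fold change against the PBS control of the same run, and lines are medians. The first 4 columns share the same 3 controls. Medians are -0.39, -0.53 and -0.51 for 20, 50 and 125 M cells per kg, -0.89 for IL-1β without cells and -0.47 for all doses of the intravenous run.

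Because the mitotic genes moved together, their promoters were read for 2 elements known from cell cycle genes. One is the cell cycle genes homology region (CHR), searched as TTTGAA, and the other the CCAAT box, searched as CCAAT, both on either strand in the 250 bases before the start. RefSeq promoters on GRCr8 were found for 43 of the 49 tested genes (44 starts). TTTGAA was present in 23 of the 44 (52.3%), against 10.6% of 11157 promoters of tested genes, and CCAAT in 33 (75%), against 34.8%. Of the 18 promoters of called members, 9 held TTTGAA and 14 CCAAT. A match is a description of the letters and not a measured binding site. Called members with more than 1 RefSeq start, and those on some chromosomes, were not considered for display. The last 110 bases before the start are shown for the 6 with the smallest p of 7 called members considered that hold both there, on chromosomes and strands as follows: Pttg1 chr10:28406327-28406436 (minus), Cdc20 chr5:137255800-137255909 (minus), Ncapd2 chr4:159677939-159678048 (minus), Prc1 chr1:143659371-143659480 (plus), Mki67 chr1:199952594-199952703 (minus) and Cdk1 chr20:19265183-19265292 (plus). Capitals mark TTTGAA or TTCAAA and CCAAT or ATTGG, and in Mki67 the matches overlap by 1 base.
Pttg1: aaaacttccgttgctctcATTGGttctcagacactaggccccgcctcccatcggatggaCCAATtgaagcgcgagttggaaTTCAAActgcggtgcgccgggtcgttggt
Cdc20: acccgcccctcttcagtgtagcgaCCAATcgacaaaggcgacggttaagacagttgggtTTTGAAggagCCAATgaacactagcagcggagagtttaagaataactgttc
Ncapd2: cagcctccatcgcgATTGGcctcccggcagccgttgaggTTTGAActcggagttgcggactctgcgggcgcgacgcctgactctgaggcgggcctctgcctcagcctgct
Prc1: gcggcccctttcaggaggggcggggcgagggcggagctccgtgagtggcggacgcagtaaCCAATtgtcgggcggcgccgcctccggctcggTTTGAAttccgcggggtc
Mki67: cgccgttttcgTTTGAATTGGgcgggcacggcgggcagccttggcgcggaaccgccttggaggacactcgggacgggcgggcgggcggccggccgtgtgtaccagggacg
Cdk1: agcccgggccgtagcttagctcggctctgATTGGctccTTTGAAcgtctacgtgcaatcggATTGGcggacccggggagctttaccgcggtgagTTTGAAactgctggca

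In Cdc20 and Cdk1 a TTTGAA match lies between 2 CCAAT-box matches, and in Pttg1 both elements lie in the last 51 bases on opposite strands. Of the genes shown, those without values so far are Ncapd2 (log2 fold change -0.40, adjusted p = 0.0255), Prc1 (-0.54, adjusted p = 0.0329) and Cdk1 (-0.53, adjusted p = 0.0402), by edgeR's test.

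Several enzymes of cholesterol synthesis were also lower. Brain cells make their own sterol, since cholesterol does not cross from the blood. Of 25 tested members, 24 had a negative log2 fold change and 6 were called lower, Msmo1, Fdft1, Fdps, Ebp and Sqle among them, against 1.60% of all genes, with a median of -0.28. The summed level was 1228 to 1356 CPM in controls and 902 to 1227 CPM in treated libraries. Msmo1, the C4-methyl sterol oxidase, had 68.6, 78.1 and 83.3 CPM in controls and 37.1 to 60.1 CPM (median 48.3) in treated libraries. It did not overlap and held without any 1 library (log2 fold change -0.64, SE 0.09, adjusted p = 0.00181 by edgeR's test). Leaving out control replicate 2 left Msmo1 as the only called member (adjusted p 0.0702 for Fdft1 and 0.0745 for Fdps by edgeR's test).

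Ctsb, Ctsl, Fcgr2b and Fcgr3a were also called lower. Ctsb, cathepsin B, had 5275, 5300 and 6303 CPM in controls and 3984 to 4710 CPM (median 4320) in treated libraries. Ctsl, cathepsin L, had 2149, 2077 and 2116 CPM in controls and 1494 to 1809 CPM (median 1675) in treated libraries. Both were lower in all 9 libraries, by -0.38 (SE 0.07, adjusted p = 0.0119) and -0.35 (SE 0.06, adjusted p = 0.00864) on the log2 scale by edgeR's test. Fcgr2b, the inhibitory receptor for IgG, had 537, 520 and 477 CPM in controls and 276 to 435 CPM (median 326) in treated libraries, without overlap (log2 fold change -0.61, SE 0.09, adjusted p = 0.00318 by edgeR's test). Fcgr3a, an activating IgG receptor, was called lower too (-0.57, adjusted p = 0.034), but its highest treated library, at 280 CPM, was above its lowest control, at 267 CPM. That call was lost in 7 of the 12 fits without 1 library, up to 0.156 without control replicate 2.

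Other members of the microglial lists moved upwards. C3, the central complement component, had 75.2, 67.5 and 49.3 CPM in controls and 89.5 to 148 CPM (median 104) in treated libraries (log2 fold change 0.80, SE 0.15, adjusted p = 0.0134 by edgeR's test). The groups did not overlap. Clec7a, the receptor dectin-1, rose by 0.81 on the log2 scale (SE 0.17, adjusted p = 0.0223). Both calls were lost without control replicate 2 (0.0574 for C3 and 0.11 for Clec7a), and that of Clec7a without control replicate 3 as well (0.071). The complement and phagocytosis list as a whole had a median of 0.08 over 25 genes tested, with 1 called higher and 2 lower, against 1.40% and 1.60% of all genes.

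Of the homeostatic list, 2 of 24 members were called lower, against 1.60% of all genes. The median was -0.11, with 19 members negative. In every treated library 3 members were below all controls, against 3.48% of all genes, and 1 was above them, against 2.52%. P2ry12, the purine receptor that guides microglial processes, had 1679, 1536 and 1292 CPM in controls and 1264 to 1550 CPM in treated libraries. Its log2 fold change was -0.16 (SE 0.09, adjusted p = 0.334 by edgeR's test). Cx3cr1, the fractalkine receptor, and Tmem119 had log2 fold changes of 0.00 (SE 0.11) and -0.11 (SE 0.23). The called members were Slc2a5, the microglial fructose transporter, and Crybb1, a crystallin of early postnatal microglia. Slc2a5 had 451, 442 and 467 CPM in controls and 263 to 433 CPM (median 320) in treated libraries. Crybb1 had 12.6, 16.9 and 16.8 CPM in controls and 5.82 to 12.1 CPM (median 8.35) in treated libraries. The log2 fold changes were -0.42 (adjusted p = 0.0226) and -0.80 (adjusted p = 0.0306) by edgeR's test. Both calls were lost without control replicate 2 (0.0823 and 0.141) and replicate 3 (0.0644 and 0.0864), and that of Crybb1 without HuMSC125 replicate 3 (0.0514). The call of Slc2a5 was also lost with the 9 treated libraries as 1 group (0.0727).

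Class II genes of antigen presentation were higher. They load peptides for display to helper T cells, and Cd74 is the chaperone of the class II molecule. RT1-Ba had 36.0, 26.1 and 36.8 CPM in controls and 55.6 to 120 CPM (median 61.8) in treated libraries. Cd74 had 140, 102 and 157 CPM in controls and 204 to 445 CPM (median 256) in treated libraries. Neither overlapped, and HuMSC20 replicate 1 was the highest library for both. The log2 fold changes were 1.13 (SE 0.20, adjusted p = 0.011) and 1.03 (SE 0.20, adjusted p = 0.0156) by edgeR's test. RT1-Da rose by 1.02 and the class I gene RT1-CE5 by 0.84. In all, 5 of 21 tested members were called higher, against 1.40% of all genes, with a median of 0.22. None of the 5 was called without control replicate 2 (adjusted p 0.0674 to 0.198 by edgeR's test). The RT1 genes have near-identical copies, and the handling of shared reads is not stated in the labels, so their values are uncertain.

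The immediate early transcription factors Nr4a2 and Fosl2 stood higher, and most cytokine genes did not pass the test. Nr4a2, a nuclear receptor induced by activity and inflammation, had 86.3, 127 and 83.8 CPM in controls and 141 to 334 CPM (median 184) in treated libraries. Fosl2, a subunit of AP-1, had 8.08, 9.76 and 10.1 CPM in controls and 12.5 to 23.6 CPM (median 19.0) in treated libraries. Both were higher in all 9 libraries, by 1.04 (SE 0.19) and 1.02 (SE 0.19) on the log2 scale, each with an adjusted p of 0.0134 by edgeR's test. Nr4a2 lost its call without control replicate 1 (0.0627) or 3 (0.052), and Fosl2 without control replicate 1 (0.0596) or 2 (0.0589). The immediate early list, which also responds to tissue dissociation, had a median of 0.21 over 32 genes, with 2 called higher and Myc lower, against 1.40% and 1.60% of all genes. Myc ran from 132 to 175 CPM in controls and from 85.4 to 135 CPM in treated libraries and overlapped. Its adjusted p of 0.034 was above 0.05 in 5 of the 12 fits without 1 library, up to 0.137 without control replicate 3. Sgk1, a kinase induced by glucocorticoids, fell without overlap. It had 727, 766 and 773 CPM in controls and 386 to 527 CPM (median 485) in treated libraries (log2 fold change -0.69, SE 0.08, adjusted p = 0.000938 by edgeR's test). The glucocorticoid list as a whole had a median of 0.00 over 18 genes.

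The inflammatory cytokine and NF-kB list had a median of 0.07 over 28 genes, with Relb called higher and Il6 lower, against 1.40% and 1.60% of all genes. Il1b itself had 350, 643 and 541 CPM in controls and 451 to 863 CPM in treated libraries, and the groups overlapped (log2 fold change 0.19, SE 0.23, adjusted p = 0.695 by edgeR's test). Relb, a subunit of NF-kB, rose by 0.62 with an adjusted p of 0.0474, which was above 0.05 in 8 of the 12 fits without 1 library (up to 0.159 without control replicate 1). Il6 was near the detection limit, at 0.755 to 1.39 CPM in controls and 0.147 to 0.815 CPM in treated libraries. Its adjusted p of 0.0437 was above 0.05 in 9 of the 12 such fits, up to 0.153 without control replicate 1. Ccl5, a chemokine for T cells and monocytes, had 0.301, 0.353 and 0.206 CPM in controls and 0.653 to 4.99 CPM in treated libraries, with an adjusted p of 0.0664. Of the IL-6 family list, Il6st and Il6 were called lower and Pim1 higher among 22 tested, against 1.60% and 1.40% of all genes. The median was 0.11, with 18 members positive and 4 negative. Pim1, a kinase downstream of gp130, overlapped between groups and was called (adjusted p = 0.0475) in 2 of the 12 fits without 1 library, with up to 0.161 without control replicate 1. With RLE normalization its adjusted p was 0.0511.

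Of the 9 largest rises among the named genes that were called, most were in genes of mast cells. These are granule-bearing immune cells that sit in the meninges and around vessels, and their granules hold the proteases tryptase (Tpsab1, Tpsb2), chymase (Cma1, Mcpt1l1) and carboxypeptidase A3 (Cpa3). All 15 tested members of the mast cell list had a positive log2 fold change, 8 of them called higher, against 1.40% of all genes, and the median was 1.76. By dose, 7 members were called higher for HuMSC20, 0 for HuMSC50 and 2 for HuMSC125, against 0.115%, 0.389% and 1.15% of all genes. The medians by dose were 2.53, 1.65 and 1.45, and a joint test of differences among the 3 doses called 0 members. The summed level of the 16 matched genes was 112, 112 and 181 CPM in controls and 211 to 860 CPM (median 419) in treated libraries. Injured libraries summed to 444, 249 and 260 CPM. Of the 16 genes, every one had a count in each of the 12 libraries.

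Tpsab1 had 1.77, 2.29 and 3.64 CPM in controls and 6.08 to 33.0 CPM (median 18.3) in treated libraries, a log2 fold change of 2.69 (SE 0.49, adjusted p = 0.0134 by edgeR's test). Ms4a2, the beta chain of the IgE receptor, had 0.789, 1.23 and 1.44 CPM in controls and 2.27 to 10.3 CPM (median 6.29) in treated libraries (log2 fold change 2.39, SE 0.43, adjusted p = 0.0134). Cpa3 had 12.8, 12.7 and 29.3 CPM in controls and 32.7 to 176 CPM (median 78.0) in treated libraries (log2 fold change 2.23, SE 0.45, adjusted p = 0.019 by edgeR's test). The groups did not overlap, although control replicate 3 came close to the lowest treated libraries for Cpa3. Slc6a4, the serotonin transporter, and Mcemp1, a membrane protein of mast cells, rose by 2.31 and 2.30. The HuMSC20 libraries were the highest for Tpsab1, at 33.0, 32.8 and 20.1 CPM, and in the HuMSC50 group replicate 1, at 18.3 CPM, stood above the other 2, at 8.19 and 6.08. None of the 8 called members was called without control replicate 1 (adjusted p 0.0565 to 0.111 by edgeR's test) or control replicate 2 (0.0589 to 0.162), and all 8 were without control replicate 3. Slc6a4 (0.0672 and 0.0928) and Mcemp1 (0.0869 and 0.0928) lost theirs without the same controls. The Mcpt genes have near-identical copies, so counts of Mcpt1l1 are uncertain.

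Markers of other cells that CD11b/c beads can carry were read in the same way. The neutrophil list had a median of 1.15 over 14 tested genes, and its summed level was 204 to 269 CPM in controls and 231 to 581 CPM in treated libraries, which overlapped. Of the 14 genes, 11 had a positive log2 fold change and none was called. All 9 treated libraries lay above all controls for 4 of them, against 2.52% of all genes. Of the 18 matched genes, 4 had no count in at least 1 library. These were the granule genes Mpo, Elane and Prtn3, and Ltf, which had none in any of the 12. The others, S100a8 and S100a9 among them, had counts in all 12. Neuron markers had positive log2 fold changes for all 21 genes tested, with a median of 0.47 and 2 called higher (Gad2 and Map2), against 1.40% of all genes. Their summed level was 58.5 to 106 CPM in controls and 87.7 to 134 CPM in treated libraries. The adjusted p of Gad2 (0.0356) was above 0.05 in 7 of the 12 fits without 1 library and that of Map2 (0.0437) in 8, up to 0.15 and 0.162, both without control replicate 2. Medians were 0.53 for T and NK cell markers (11 tested), 0.20 for border-associated macrophage markers (13 tested), 0.19 for dendritic cell markers (11 tested) and -0.16 for B cell markers (7 tested). Of the T and NK cell genes, Cd3d, Cd3e and Cd3g had no count in at least 1 library. Lyve1, a scavenging receptor of border-associated macrophages, had 891, 764 and 660 CPM in controls and 370 to 638 CPM in treated libraries. Its adjusted p of 0.049 was above 0.05 in 11 of the 12 fits without 1 library, up to 0.147 without control replicate 2. Blk, a kinase listed as a B cell marker, fell by 1.15 on the log2 scale with overlapping groups (adjusted p = 0.0249, and 0.0931 and 0.115 without control replicate 2 and 3). The part of such cells in the other results was not tested.

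Taken dose by dose against the same 3 controls, 19 genes were called for HuMSC20 (0.137% of those tested), 16 higher (0.115%) and 3 lower (0.0216%). For HuMSC50 there were 111 (0.800%), 54 higher (0.389%) and 57 lower (0.411%), and for HuMSC125 313 (2.26%), 160 higher (1.15%) and 153 lower (1.10%). Each number moved with single libraries. For HuMSC20 it was 4 and 1 without control replicate 1 and 2, and 12 and 7 without HuMSC20 replicate 1 and 3. For HuMSC50 it was 52 and 54 without the same controls, 48 without HuMSC50 replicate 1 and 170 without HuMSC50 replicate 3. For HuMSC125 it was 62 and 173 without control replicate 2 and 3, and 101, 81 and 31 without HuMSC125 replicate 1, 2 and 3. The numbers do not show that the doses differed. A joint test of differences among the 3 doses called 0 genes in edgeR (smallest adjusted p = 0.906, with 756 genes at an unadjusted p under 0.05), and DESeq2 called 6. For comparison, injured libraries differed from the same controls in 772 genes (5.57%), 371 higher (2.67%) and 401 lower (2.89%), and in 377, 364 and 231 genes without control replicate 2, injured replicate 1 and injured replicate 3. Between treated and injured libraries 18 genes were called by edgeR's test (0.130%; 1131 genes at an unadjusted p under 0.05), 6 higher (0.0433%) and 12 lower (0.0865%) after treatment, and DESeq2 called 107. That count of 18 was 1, 11 and 0 without injured replicate 1, 2 and 3, and 4 and 10 without HuMSC20 replicate 2 and 3. By dose, Dhrs9 had log2 fold changes of -1.03, -1.29 and -1.09 for HuMSC20, HuMSC50 and HuMSC125, and Gcnt2 had -1.23, -1.49 and -1.70. Sdc1 had 1.34, 1.71 and 1.68. Enpp6 had -0.56, -0.94 and -1.91, Ankrd55 -1.61, -2.74 and -2.45, and Tpsab1 3.52, 2.12 and 2.43. Injured libraries had -2.80 for Enpp6, -3.42 for Ankrd55 and 2.36 for Tpsab1.

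The P7 run with intravenous cells has its own controls and so gives independent libraries for the same contrast. There, 97 of 14698 genes were called (0.660%), 16 higher (0.109%) and 81 lower (0.551%). That count was 14, 15 and 15 without intravenous control replicate 1, 2 and 3, and 52 and 47 without HuMSC125 replicate 1 and 2 of that run. It was 546, 423 and 1242 without its HuMSC20 replicate 2, HuMSC50 replicate 3 and HuMSC125 replicate 3. The balance of directions moved as well. Higher genes outnumbered lower ones without HuMSC20 replicate 2 (367 and 179) and without HuMSC125 replicate 3 (887 and 355). The same held with DESeq2 (984 and 397) and without a filter on low counts (210 and 157). Without any other 1 library of that contrast lower genes still led, as without HuMSC50 replicate 3 (94 higher and 329 lower). Of the 416 genes called after intranasal cells, 414 were tested there and 359 (86.7%) had the same sign, against 66.7% over all genes. Of these, 49 were called in the same direction in both runs, which is 49 of the 416 and 49 of the 97, and 12 of the 49 were higher. Same signs were shared by 79.8% of the higher genes and 92.8% of the lower. Markers of neurons stood higher among treated libraries of the intravenous run (median 2.46). Without the 3 libraries that carried most of them (HuMSC20 replicate 1 and HuMSC125 replicates 1 and 2), 371 of 416 genes (89.2%) had the same sign. The share of same signs over all genes was not computed without those libraries, so the 89.2% has no background beside it. That run's count then fell to 15 of 15049 genes, 9 of them shared with the 416. The libraries that remained still stood above their controls in neuron markers, with a median of 1.35 over 24 genes. Medians were 0.81 for oligodendrocyte precursor markers and 0.60 for oligodendrocyte markers, and no member of these lists was called.

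Ankrd55 had a log2 fold change of -2.29 in the intravenous run (SE 0.15, adjusted p = 6.74e-06 by edgeR's test), and Il6st -1.26 (SE 0.17, adjusted p = 0.0047). Sdc1 had 1.35 (adjusted p = 0.000558), Tnfaip8l3 1.48 (0.0169), Ccdc8 -1.14 (0.00458) and Sgk1 -1.54 (0.000109). Of these 6 genes, only Tnfaip8l3 lost its call without the 3 neuron-rich libraries (adjusted p = 0.0702 by edgeR's test). The mitosis list had 6 of 49 members called lower there, Cdc20 and Tpx2 among them, against 0.551% of all genes tested there. Its median was -0.47. Without the 3 neuron-rich libraries 1 member was called lower, against 12 of 15049 genes, and the median was -0.32. Cd74 (1.01, adjusted p = 0.0343) and RT1-Da (1.08, adjusted p = 0.0493) rose in that run as well, and the cathepsins fell (Ctsl -0.54, adjusted p = 0.0286, and Ctsb -0.73, adjusted p = 0.0161). None of these 4 was called without the neuron-rich libraries (0.0632 for Cd74, 0.0745 for RT1-Da, 0.0702 for Ctsl and 0.0703 for Ctsb). Other groups had values that lay apart between runs. The mast cell list had a median of -0.52 in the intravenous run, against 1.76 here, and Tpsab1 -0.07 (SE 0.30). The cholesterol list had a median of -0.02 there, against -0.28. Without the 3 neuron-rich libraries these medians were -0.33 for the mast cell list and -0.09 for the cholesterol list. Enpp6 had -0.21 (SE 0.45) in the intravenous run and -0.91 (SE 0.36) without those libraries, and neither value was called (adjusted p = 0.313 for the second by edgeR's test). The test of the difference between routes itself called 0 of 14851 genes in edgeR (smallest adjusted p = 0.0913, with 1460 genes at an unadjusted p under 0.05), and DESeq2 called 41. Slc6a4, Mcemp1, Ms4a2, Mcpt1l1, Tpsb2, Cma1 and Sgk1 all stood at that smallest adjusted p of 0.0913. The differences of Ms4a2 and Mcpt1l1 were 2.91 (SE 0.59) and 2.95 (SE 0.55) on the log2 scale.

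**Figure D4:**
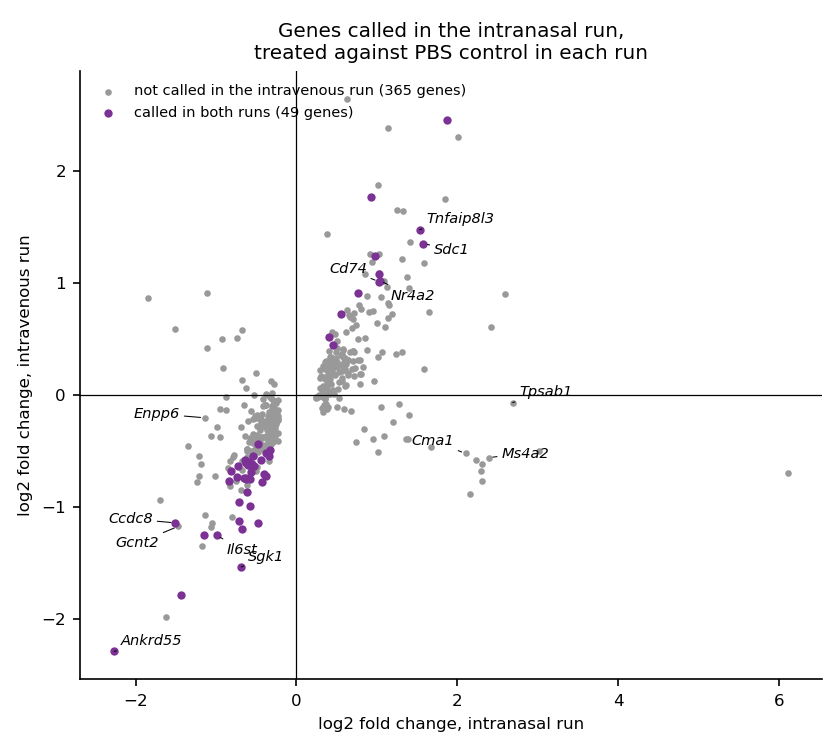
Each point is 1 of the 414 genes called in the intranasal run and tested in the intravenous run; axes are the log2 fold changes of treated against PBS control in each run. The 49 genes called in both runs, purple, have the same sign in both. Mast cell genes such as Tpsab1 and Ms4a2 lie at the right, between 2 and 3 on the x axis and below 0 on the y axis.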

How the data were processed

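RNA was measured in CD11b/c-selected cells of P7 rat brain. Per the labels' protocols, libraries were stranded, polyA-selected (100 ng of input RNA) and sequenced from 1 end for 75 bases. The submitters' processing notes list, in no stated order, HTSeq 0.5.3, DESeq2 1.8.1, STAR 2.7.2d and SAMtools. The genome build, the annotation and the handling of strand and shared reads are not given in the sources used here. The authors deposited raw read counts for 32623 genes, without normalization.

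A single edgeR fit (version 4.0.16, on limma 3.58.1 and R 4.3.3) took the 15 libraries of the intranasal run, each group having its own mean, after filterByExpr (minimum count 10, minimum total 15) and TMM scaling. The quasi-likelihood F test compared the mean of the 3 doses with control, and p-values were adjusted by Benjamini-Hochberg over all genes tested at 0.05. The SE is the log2 fold change over the square root of F, and CPM values use the TMM library sizes. The intravenous run was fitted in the same way, and the difference between routes in 1 fit of the 30 libraries of both runs. The fit was tested on simulated counts. DESeq2 1.42.0 was an alternative.

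The members and lists were chosen with earlier results of these data known. Named genes are the 15 called genes that rose most and the 15 that fell most (no overlap between the groups, average log2 CPM 1 or more, a settled symbol), up to 4 members of each list by p, and a fixed panel. The text also names further called members of some lists, chosen after their values were seen. Of 788 list genes in 38 lists, 748 matched by symbol, 5 by synonym and 35 did not match. Promoters come from RefSeq (GRCr8). CPM is not scaled to gene length, so levels were compared only between libraries. No pair of libraries of a group agreed within sampling noise. Some members of these lists are not reported here.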

Additional observations from a re-analysis of the deposited data

How the results depend on the processing

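The count of 416 genes was 1007 with DESeq2 and 268 with only control and treated libraries in the fit, and 59 to 584 when 1 library was left out. HuMSC20 gave 156 genes with DESeq2, 55 without a filter on low counts, 9 with only that dose in the fit, and 1 to 16 without 1 library. HuMSC50 gave 544, 221, 5 and 48 to 170 in the same order. HuMSC125 gave 1035 with DESeq2, 85 with only that dose in the fit and 31 to 237 without 1 library. Injured against control gave 1266 with DESeq2 and 231 to 761 without 1 library, and treated against injured, 18 genes (0.130%) by edgeR's test, gave 107 and 0 to 20. Differences among doses gave 6 with DESeq2 and 0 to 3 without 1 library. The intravenous run gave 1381 with DESeq2, 367 without a filter, 15 without the 3 neuron-rich libraries (an alternative chosen after seeing the data) and 14 to 1242 without 1 library. The difference between routes gave 41 with DESeq2 and 9 without a filter. RLE normalization and 1 mean for the 9 treated libraries (402 genes) moved no count by over 1.5 times.

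Of the 73 named genes that were called, 33, 56 and 29 lost the call when control replicate 1, 2 or 3 was left out, and between 3 and 19 without a treated library. None changed sign in these fits. With only control and treated libraries in the fit, Il6, Relb, Fcgr3a, Atp5f1a, Myc, Cebpd, Pim1, Cd5, Bcl11a, Gad2 and Map2 were not called (adjusted p 0.0526 to 0.0787 by edgeR's test). With 3 controls, the control group limits what can be called.

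Replicates share only a number: deviations of same-numbered libraries had mean correlations of 0.06, 0.02 and 0.02, and 7 of 15 libraries correlated best with their own number. With a replicate block, treated against control gave 384 genes and the intravenous run 48. The other counts under the block were within 1.5 times.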

Other observations

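The 38 genes called without any 1 library also hold genes outside the naming rule, and those below were chosen after their values were seen. Among the higher ones were Cfd, complement factor D, with a log2 fold change of 1.32 (SE 0.16), Il18rap, the accessory chain of the IL-18 receptor, with 1.24 (SE 0.15), and Cd38, an NAD-consuming ectoenzyme, with 1.16 (SE 0.18). Aoah, the lipase that inactivates bacterial endotoxin, had 1.01 (SE 0.14), Erbb3, a neuregulin receptor, 0.72 (SE 0.10), and Bcl2l11, the death inducer BIM, 0.59 (SE 0.08). In the intravenous run their log2 fold changes were 1.21 for Cfd, 0.37 for Il18rap, 0.81 for Cd38, 0.65 for Aoah, 0.17 for Erbb3 and 0.29 for Bcl2l11, all positive and none called. Nell2, another of the higher genes, had 0.97 in the intranasal run and was called in the intravenous one (1.24, adjusted p = 0.0416 by edgeR's test). For Cfd and Cd38 the adjusted p there was 0.0716 by edgeR's test, and for Erbb3 0.52.

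Among the lower ones, Rasgrp3, an activator of Ras signalling, fell by 0.79 on the log2 scale (SE 0.07) and by 0.56 in the intravenous run (adjusted p = 0.0624 by edgeR's test). Slc44a2, a choline transporter-like protein, fell by 0.60 (SE 0.08) and by 0.63 there (adjusted p = 0.0188). Sirpa, the receptor for the signal CD47 that restrains phagocytosis, fell by 0.33 (SE 0.05). Pdia4, Creld2 and Rpn1, proteins of folding and glycosylation in the endoplasmic reticulum, fell by 0.39 (SE 0.06), 0.57 (SE 0.10) and 0.32 (SE 0.06). Of all 38 genes, 37 had the same sign in the intravenous run, against 66.7% of all genes. Maged1 was the exception, with -0.50 in the intranasal run and 0.20 in the intravenous run. In the intravenous run 9 of the 38 were called, against 0.660% of all genes tested there. Of these 9, Tnfaip8l3, Ctsl and Ctsb lost that call without the 3 neuron-rich libraries (adjusted p 0.0702 to 0.0703 by edgeR's test).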
